A study of Homo sapiens with 8 samples.

Results

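The BCL2 family of apoptosis regulators was described by 10 genes, measured by 16 of the 50599 probes of a human one-colour array. These were the 7 pro-apoptotic genes BAX, BAK1, BAD, BID, BBC3, PMAIP1 and BCL2L11 and the 3 anti-apoptotic genes BCL2, BCL2L1 and MCL1. They were chosen by name, and each probe whose gene name in the files was one of these was kept and read apart from the others. The cells were FT293 cells, human embryonic kidney HEK293 cells in which a gene is placed at a single Flp recombination site and switched on by tetracycline. There were 4 lines, which expressed GFP alone or GFP fused to HuR, TIA1 or TIAR, and all of them carried the same inducible system. HuR, TIA1 and TIAR are RNA-binding proteins, and HuR and GFP cells were the controls for the TIA lines. RNA was taken on the third day of induction, and each line had 2 arrays. The labels do not say whether the 2 arrays of a line came from separate cultures, so p-values measure the spread between these arrays, which may be technical.

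Proteins of the BCL2 family control whether the outer mitochondrial membrane is permeabilized, the step that releases cytochrome c and commits a cell to intrinsic apoptosis. BAX and BAK1 are the effectors that form the pore. The BH3-only proteins (BAD, BID, BBC3 or PUMA, PMAIP1 or NOXA, and BCL2L11 or BIM) sense damage and either activate the effectors or neutralize the anti-apoptotic proteins. BCL2, BCL2L1 (BCL-XL) and MCL1 bind and hold both other classes in check. BAX, BBC3 and PMAIP1 are well-known transcriptional targets of p53.

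Probes are 60-base oligonucleotides, and 5 genes had 1 probe, 4 had 2 and BCL2L11 had 3. The sequences below are those on which the results turn, and they are shown because probes of 1 gene gave different answers. BAX probe 2 and BCL2 probe 2 are shown whole and the others by their first 30 bases. Coordinates are those of the files (hg19), and exons were not assigned. BAX probe 1, on the plus strand at chr19:49464904-49464963, was listed under NM_138764. BAX probe 2 lay 450 bases upstream of it, at chr19:49464454-49464513, and was listed under NM_004324, the beta form of BAX. BCL2 probe 1 was on the minus strand at chr18:60790723-60790782 and listed under NM_000633, the alpha form. BCL2 probe 2, at chr18:60985401-60985460 on the same strand, was listed under NM_000657, the beta form, and lay 194678 bases from probe 1. Its sequence codes for part of the BH1 region, which both forms share. BBC3 was read on the minus strand at chr19:47724174-47724233. BCL2L11 probe 1 was on the plus strand at chr2:111925892-111925951 and listed under NM_138621.
BAX probe 1 (first 30 bases): tgccttggactgtgtttttcctccataaat
BAX probe 2: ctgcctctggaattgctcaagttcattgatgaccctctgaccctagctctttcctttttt
BBC3 (first 30 bases): agtctgggagtggggagggatggcccagcc
BCL2L11 probe 1 (first 30 bases): acttgtgttttgcactgatgaattttgaca
BCL2 probe 1 (first 30 bases): tggctgatattctgcaacactgtacacata
BCL2 probe 2: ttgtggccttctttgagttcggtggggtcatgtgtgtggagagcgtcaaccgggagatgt

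All 16 probes were well above background on all 8 arrays, and no spot was saturated. Levels are given as the log2 of the processed signal relative to the 75th percentile of the same array, so that 0 is the level of that percentile and a difference of 1 is a 2-fold change. Across all probes, 53.3 to 58.6% were above background on 7 arrays, but 86.1% were on GFP array 1, whose mean local background was 83.2 against 35.7 to 41.5 elsewhere. The 2 GFP arrays differed by over 2-fold at 15.8% of the detected probes, against 0.455 to 1.45% for the pairs of the other lines. Of the HEK293 markers NEFM, NEFL, INA, PAX2 and LHX1, 4 of 6 probes were above background on all 8 arrays. Of the 5 probes tested, 3 rose and 2 fell in TIA1 against HuR cells by limma's adjusted p, led by LHX1 at 1.55 and NEFL at -1.40, and 1 rose (LHX1, 1.12) and 2 fell (NEFL, -1.68, and NEFM, -1.05) in TIAR cells. Of 18 probes for markers of other cell types, 3 were above background on all 8 arrays. The summed signal of all 18 relative to the percentile was 0.718 to 0.754 in TIA1, 0.687 to 0.769 in TIAR, 0.430 to 0.452 in HuR and 0.362 to 5.83 in GFP cells. CD3E, PECAM1, COL3A1, KRT5 and KRT14 were above background on both arrays of neither TIA1, TIAR nor HuR cells. ALB and COL1A1 were higher in TIA1 than in HuR cells, by 2.82 and 0.83 (limma adjusted p = 0.00316 and 0.00977). They were also higher in TIAR than in HuR cells, by 2.61 and 1.0 (adjusted p = 0.00568 and 0.0131). The part of either marker list in the results was not tested. Of the inserted genes, 1 of 2 probes of TIAL1, the gene of TIAR, had 4.87 and 4.98 in TIAR cells against 1.63 to 2.52 in the others. The 2 TIA1 probes had -1.26 to -0.94 in TIA1 cells against -1.77 to -1.0 in TIAR cells and -0.74 to 0.17 in the controls, and the probe of ELAVL1, the gene of HuR, had 0.33 and 0.42 in HuR cells against 0.91 and 1.09 in GFP cells. Whether these probes lie within the inserted sequence was not established, so nothing follows from them about the labelling of those lines. The title of each TIA1 array names GFP-TIA1, by which they were grouped, but the source name of array 2 reads GFP-TIA2.

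TIA1-expressing cells were compared with HuR-expressing cells to ask which family members differed between a TIA protein and another RNA-binding protein used as a control. Among effectors and BH3-only genes, the BBC3 probe, 1 of 2 BAX probes and 1 of 3 BCL2L11 probes rose by over 2-fold. The other BCL2L11 probes, both BAD probes and PMAIP1 rose by less, and the other BAX probe did not pass. Among anti-apoptotic genes BCL2 fell at 1 of its 2 probes, BCL2L1 rose slightly and MCL1 did not pass the test. In all, 3 of 16 probes were called (a change of at least 2-fold with a Benjamini-Hochberg adjusted p under 0.05 from limma), all of them upward, a share of 18.8%. Over all 28717 probes tested, 13.4% were called, 8.51% upward and 4.9% downward. By adjusted p alone, 9 member probes rose and 1 fell, 62.5% of the 16, against 41.5% of all probes (24.2% upward and 17.3% downward). The median log2 fold change of the 16 probes was 0.41, and that of all probes was 0.08. Without HuR array 1 or HuR array 2 only the call of BBC3 stayed. With a single array left for HuR, the calls over all probes fell as well. In bulk RNA a lower level per cell and fewer cells that express a gene cannot be told apart.

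TIAR-expressing cells were compared with the same HuR arrays. BAX and BBC3 were called upward, 2 of 16 probes or 12.5%, against 10.1% of 29054 probes called in either direction, 7.07% upward and 3.0% downward. By adjusted p alone, 5 member probes rose and 3 fell, 50% of the 16, against 30.7% of all probes (18.1% upward and 12.6% downward). The median log2 fold change was 0.18, and that of all probes was 0.05. Without either HuR array no member call stayed, but with a single array left for HuR the calls over all probes fell as well. Without TIAR array 2 only that of BAX stayed. Since both comparisons use the same HuR arrays, a shared direction is no independent evidence.

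**Figure D1:**
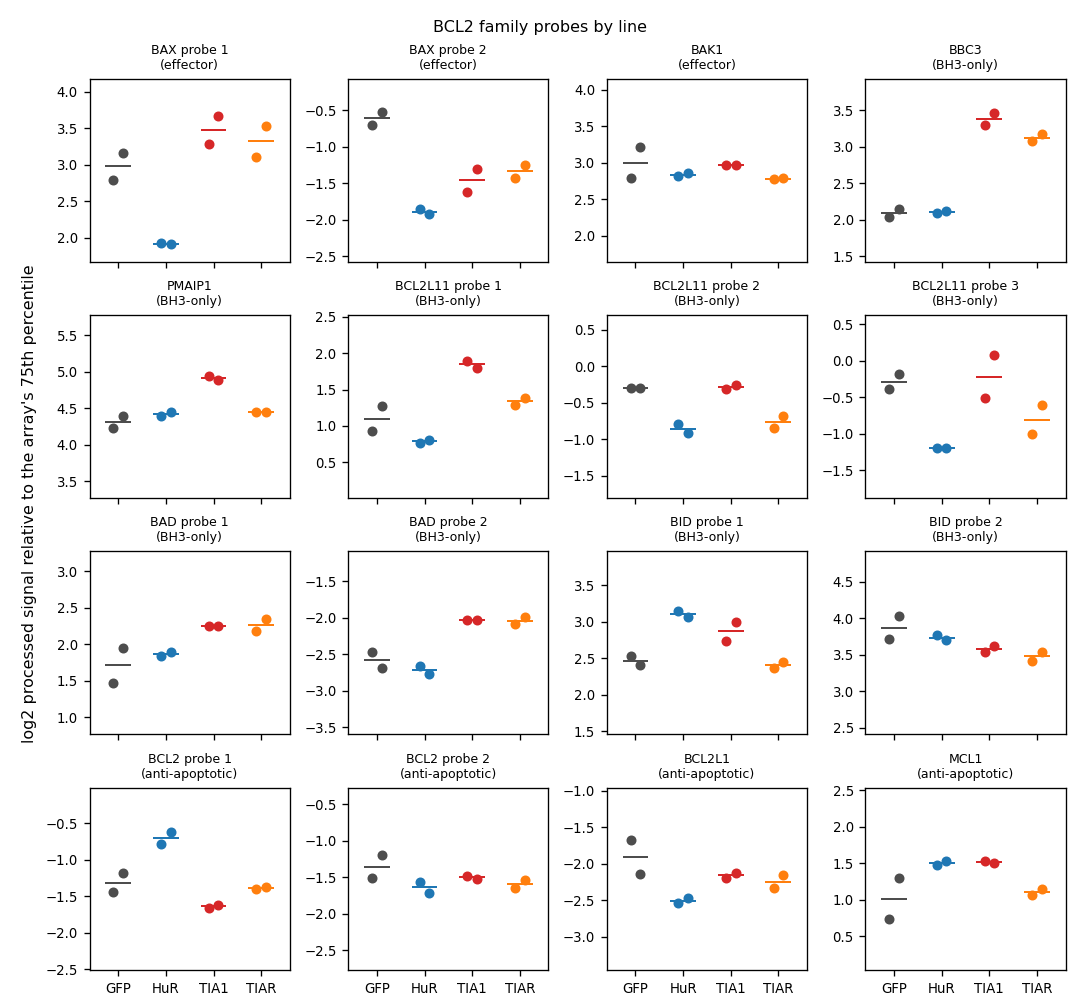
Level of each of the 16 probes on each array, one panel per probe, by line (GFP, HuR, TIA1, TIAR). The y axis is the log2 processed signal relative to the 75th percentile of the array, points are arrays, short lines are the means of 2 arrays, and all panels span the same range. HuR cells were lowest for BAX probe 1, TIA1 and TIAR cells were both above the controls for BBC3, and HuR cells were highest for BCL2 probe 1.

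BAX probe 1, which had 10 spots on each array, measured 3.28 and 3.67 in TIA1 cells and 3.11 and 3.53 in TIAR cells. It measured 1.93 and 1.91 in HuR cells and 2.79 and 3.17 in GFP cells. The HuR arrays lay below all others, while the TIAR and GFP arrays overlapped. The log2 fold change against HuR cells was 1.55 ± 0.16 (SE, n = 2 against 2, limma adjusted p = 0.0052) in TIA1 cells. In TIAR cells it was 1.40 ± 0.17 (adjusted p = 0.0111). The SD among the 10 spots of an array was 0.043 to 0.156, smaller than these differences.

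BAX probe 2 did not follow probe 1 in every line. It measured -0.70 and -0.53 in GFP cells, -1.85 and -1.93 in HuR cells, -1.62 and -1.30 in TIA1 cells and -1.42 and -1.25 in TIAR cells. Here GFP cells were above all other lines, and HuR cells were again the lowest. Against HuR cells it rose by 0.55 ± 0.11 in TIAR cells (adjusted p = 0.0301), while the value of 0.43 ± 0.14 in TIA1 cells did not pass (adjusted p = 0.0726). The difference between the 2 BAX probes on the same array was 3.59 ± 0.14 (SD, n = 2) in GFP and 3.81 ± 0.037 in HuR cells. It was 4.93 ± 0.054 in TIA1 and 4.66 ± 0.18 in TIAR cells, larger than in either control with no overlap of arrays. No test was made of this difference, since it was singled out after its values were seen.

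BAK1, the second effector, did not follow BAX. Its single probe, listed under NM_001188, measured 2.79 and 3.21 in GFP, 2.81 and 2.85 in HuR, 2.97 and 2.97 in TIA1 and 2.77 and 2.79 in TIAR cells. The log2 fold change against HuR cells was 0.14 in TIA1 cells (95% interval -0.11 to 0.38) and -0.05 in TIAR cells (-0.30 to 0.20). Neither interval reached a 2-fold change.

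BBC3 encodes PUMA, a BH3-only protein that binds all the main anti-apoptotic members. Its probe measured 3.30 and 3.46 in TIA1 cells, 3.08 and 3.17 in TIAR cells, 2.10 and 2.12 in HuR cells and 2.04 and 2.15 in GFP cells. All 4 arrays of the TIA lines were above all 4 control arrays, and HuR and GFP arrays overlapped. Against HuR cells the log2 fold change was 1.27 ± 0.10 (SE, limma adjusted p = 0.00357) in TIA1 cells and 1.02 ± 0.096 (adjusted p = 0.00722) in TIAR cells. The HuR to GFP difference was 0.02 (95% interval -0.43 to 0.46).

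BCL2L11 encodes BIM, which activates BAX and BAK1. Probe 1 measured 1.90 and 1.79 in TIA1 cells, 1.29 and 1.38 in TIAR cells, 0.77 and 0.81 in HuR cells and 0.92 and 1.28 in GFP cells. The order of the lines was TIA1, TIAR, GFP and HuR with no overlap between neighbours, although the higher GFP array was close to the lower TIAR array. It rose by 1.05 ± 0.096 in TIA1 cells (limma adjusted p = 0.00424) and by 0.55 ± 0.097 in TIAR cells (adjusted p = 0.0225) against HuR cells.

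The other BCL2L11 probes, both listed under NM_207002, lay upstream of probe 1 by 39540 and 47187 bases. Probe 2 measured -0.31 and -0.26 in TIA1, -0.84 and -0.69 in TIAR, -0.80 and -0.91 in HuR and -0.30 and -0.31 in GFP cells. Probe 3 measured -0.51 and 0.08 in TIA1, -1.0 and -0.61 in TIAR, -1.19 and -1.19 in HuR and -0.39 and -0.19 in GFP cells. At both, TIA1 and GFP cells shared the upper range, and TIAR arrays overlapped those of HuR at probe 2. Both rose in TIA1 against HuR cells, by 0.57 (adjusted p = 0.0156) and 0.98 (adjusted p = 0.0301), and neither passed in TIAR cells (log2 fold changes of 0.09 and 0.38).

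PMAIP1 encodes NOXA, which binds MCL1 above all. It measured 4.95 and 4.88 in TIA1, 4.45 and 4.45 in TIAR, 4.39 and 4.45 in HuR and 4.23 and 4.39 in GFP cells. TIA1 cells stood above the other 3 lines, which lay close together. It rose by 0.49 ± 0.093 in TIA1 against HuR cells (limma adjusted p = 0.0196), and in TIAR cells the difference was 0.03 (95% interval -0.22 to 0.28).

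BAD encodes a BH3-only protein that binds BCL2 and BCL-XL and is held inactive by phosphorylation. Its probe 1 (NM_004322) measured 2.25 and 2.25 in TIA1, 2.18 and 2.35 in TIAR, 1.84 and 1.89 in HuR and 1.47 and 1.95 in GFP cells. Probe 2, listed under an Ensembl transcript, measured -2.03 and -2.03 in TIA1, -2.09 and -1.99 in TIAR, -2.66 and -2.77 in HuR and -2.47 and -2.68 in GFP cells. At both probes the 4 arrays of the TIA lines lay above the 4 control arrays. Against HuR cells probe 2 rose by 0.68 in TIA1 (adjusted p = 0.00992) and by 0.67 in TIAR cells (adjusted p = 0.0171), and probe 1 rose by 0.38 in TIA1 cells (adjusted p = 0.0333). The value of 0.40 for probe 1 in TIAR cells did not pass (adjusted p = 0.0596).

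BID, which links death receptors to mitochondria once it is cleaved, was the BH3-only gene whose probes were negative in both comparisons. Its probes, both listed under NM_197966, started 83 bases apart. Probe 1 measured 2.73 and 3.0 in TIA1, 2.37 and 2.45 in TIAR, 3.15 and 3.07 in HuR and 2.53 and 2.40 in GFP cells. HuR cells were the highest, and TIAR and GFP arrays overlapped. Probe 1 fell by 0.70 in TIAR cells against HuR cells (limma adjusted p = 0.0143), with -0.24 in TIA1 cells (adjusted p = 0.2). Probe 2 measured 3.54 and 3.62 in TIA1, 3.41 and 3.54 in TIAR, 3.76 and 3.70 in HuR and 3.71 and 4.03 in GFP cells, and passed in neither comparison.

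**Figure D2:**
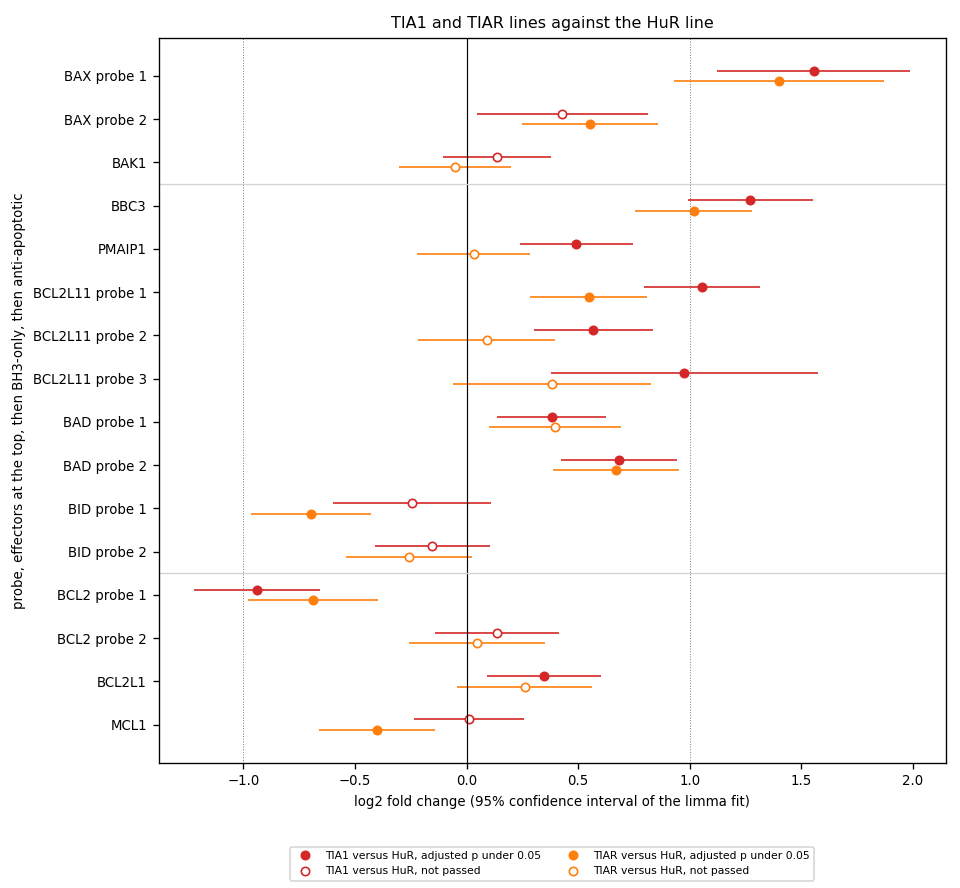
Log2 fold change of each of the 16 probes in TIA1 and TIAR cells against HuR cells, with the 95% confidence interval of the limma fit as a horizontal line and dotted lines at a 2-fold change. Filled points passed an adjusted p of 0.05 and open points did not. BAX probe 1 (1.55 and 1.40) and BBC3 (1.27 and 1.02) were past 2-fold in both lines, and BCL2L11 probe 1 (1.05) in TIA1 cells.

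BCL2, the founding anti-apoptotic gene, gave different values at its 2 probes. Probe 1 (10 spots) measured -1.66 and -1.62 in TIA1, -1.41 and -1.37 in TIAR, -0.78 and -0.62 in HuR and -1.45 and -1.18 in GFP cells. HuR cells were above all other lines, and TIAR and GFP arrays overlapped. Against HuR cells probe 1 fell by 0.94 ± 0.10 in TIA1 (limma adjusted p = 0.00601) and by 0.69 ± 0.11 in TIAR cells (adjusted p = 0.017).

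BCL2 probe 2, in coding sequence shared by the alpha and beta forms, measured -1.48 and -1.52 in TIA1, -1.65 and -1.53 in TIAR, -1.56 and -1.71 in HuR and -1.52 and -1.20 in GFP cells. Its log2 fold change against HuR cells was 0.14 (95% interval -0.14 to 0.42) in TIA1 cells and 0.05 (-0.26 to 0.35) in TIAR cells, so that a fall of the size seen at probe 1 lay outside both intervals. The difference between probes 1 and 2 on the same array was 0.94 ± 0.22 (SD, n = 2) in HuR cells. It was 0.043 ± 0.037 in GFP, -0.14 ± 0.052 in TIA1 and 0.20 ± 0.054 in TIAR cells, so the HuR line was the one that stood apart. This difference too was singled out after its values were seen and was not tested.

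BCL2L1 encodes BCL-XL. Its probe (NM_138578, 10 spots) measured -2.20 and -2.12 in TIA1, -2.33 and -2.15 in TIAR, -2.53 and -2.47 in HuR and -1.68 and -2.14 in GFP cells. HuR cells were the lowest and the other 3 lines overlapped. It rose by 0.35 ± 0.094 in TIA1 against HuR cells (limma adjusted p = 0.0474), and the value of 0.26 in TIAR cells did not pass (adjusted p = 0.148).

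MCL1 encodes the short-lived anti-apoptotic partner of BIM and NOXA. Its probe (NM_021960) measured 1.54 and 1.51 in TIA1, 1.07 and 1.14 in TIAR, 1.49 and 1.54 in HuR and 0.73 and 1.30 in GFP cells. TIA1 and HuR arrays overlapped, with a difference of 0.01 (95% interval -0.23 to 0.26). In TIAR cells it fell by 0.40 ± 0.095 against HuR cells (limma adjusted p = 0.0431).

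GFP cells gave a second control level, against which all 3 lines were compared. No probe of any gene passed the adjusted threshold in TIA1, TIAR or HuR cells against GFP cells (limma, 0.0% called in each), where the spread between the GFP arrays was large. At an unadjusted p under 0.05 there were 6053 of 27997, 4669 of 28541 and 4956 of 28827 probes among all genes. Of the 16 BCL2 family probes there were 4, 2 and 6. BBC3 had the smallest adjusted p of the family, with log2 fold changes of 1.29 ± 0.20 in TIA1 (adjusted p = 0.105) and 1.03 ± 0.19 in TIAR cells (adjusted p = 0.199). With all 8 arrays in one fit both passed (adjusted p = 0.00426 and 0.0115). In that fit 5, 2 and 1 of the 16 member probes passed in TIA1, TIAR and HuR cells. Over all genes 5270 of 27951, 3302 of 28514 and 1925 of 28776 probes passed. That fit takes 1 spread per probe for all lines, although the GFP arrays differed more than the others.

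BAX gave another pattern against GFP cells. Probe 1 was at 0.50 in TIA1 (adjusted p = 0.357) and 0.34 in TIAR cells (adjusted p = 0.554), but at -1.06 ± 0.20 in HuR cells (adjusted p = 0.195). Probe 2 was negative in all 3 lines, at -0.85, -0.72 and -1.28, with adjusted p of 0.164, 0.249 and 0.177. Without GFP array 1 the HuR values were -1.25 for probe 1 and -1.36 for probe 2, and the median over all probes tested was -0.03. Without GFP array 2 they were -0.87 and -1.19, and the median over all probes tested was -0.77. In both fits a single array stood for GFP. The 1.55 of BAX probe 1 in TIA1 against HuR cells is thus the sum of 0.50 above GFP cells and 1.06 below them in HuR cells, whereas for BBC3 the corresponding HuR value was 0.02.

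BCL2L11 probe 1 was at 0.74 in TIA1 (adjusted p = 0.189) and -0.31 in HuR cells (adjusted p = 0.46) relative to GFP cells. PMAIP1 was at 0.60 in TIA1 cells (adjusted p = 0.203) and the BAD probes at 0.54 and 0.54 (adjusted p = 0.31 and 0.234). In TIA1 cells 5270 of 27951 probes of all genes passed in the limma fit of all 8 arrays. Among them were BCL2L11 probe 1 (adjusted p = 0.0272), PMAIP1 (0.0257) and BAD probe 2 (0.042) as rises. In the same fit BAX probe 2 passed as a fall in TIA1 (adjusted p = 0.0211), TIAR (0.0438) and HuR cells (0.0173). BCL2 probe 1 was at 0.61 in HuR cells (adjusted p = 0.261), and BID probe 1 at 0.64 (adjusted p = 0.224).

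**Figure D3:**
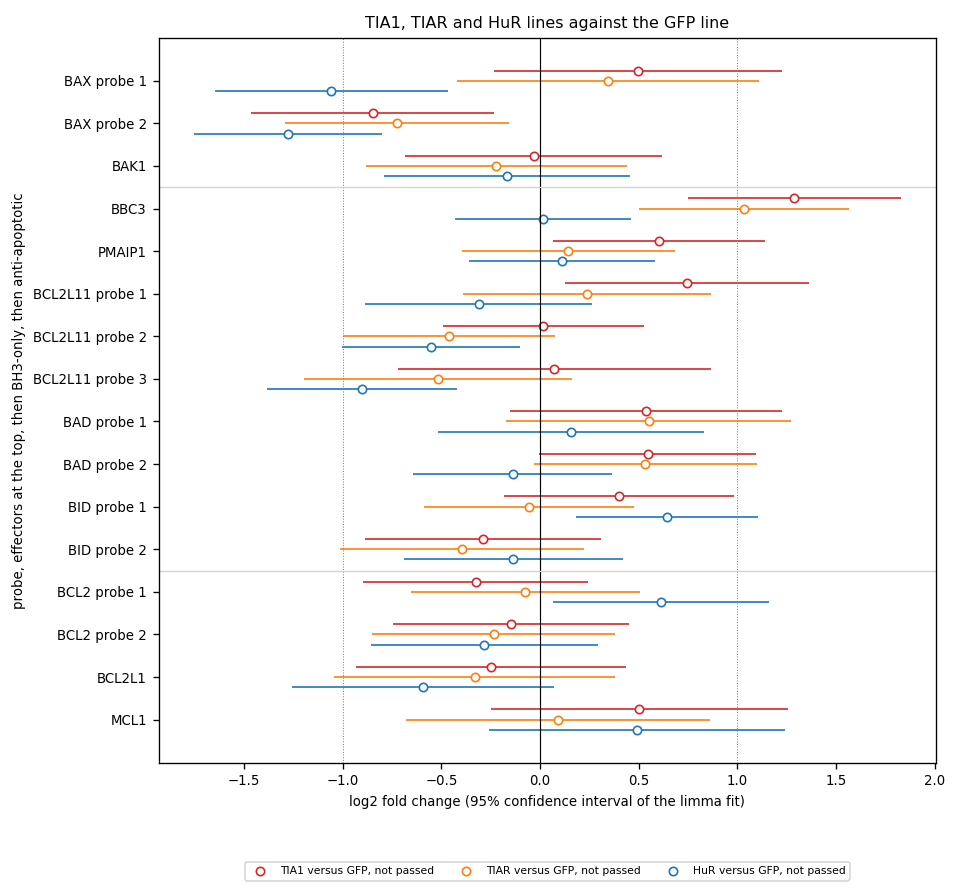
Log2 fold change of each of the 16 probes in TIA1, TIAR and HuR cells against GFP cells, with the 95% confidence interval of the limma fit; all points are open because none passed an adjusted p of 0.05. BBC3 was high in both TIA lines (1.29 and 1.03) and near 0 in HuR cells (0.02), while the BAX probes were at -1.06 and -1.28 in HuR cells.

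Counted over arrays, 5 of the 16 probes had all 4 TIA1 and TIAR arrays above all 4 control arrays. They belonged to BBC3, BCL2L11 (probe 1), PMAIP1 and BAD (both probes), all of them BH3-only genes, and for PMAIP1 the lowest TIA array and the highest control array were both at 4.45. Among the 24959 probes above background on every array, 13.8% had this pattern. BID probe 2 was the 1 probe with the 4 TIA arrays below all controls, a pattern of 10.2% of all probes. In 5 probes of BAX, BCL2L11 and BCL2L1, both HuR arrays were below the other 6, against 16.0% of all probes, and in BCL2 probe 1 and BID probe 1 both were above, against 13.2%.

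TIAR-expressing cells were also compared with TIA1-expressing cells. None of the 16 probes passed the adjusted threshold (limma), with 2.35% of 28017 probes called, 3.49% past the adjusted p alone and 6666 at an unadjusted p under 0.05, of which 5 were of the BCL2 family. Those 5 were lower in TIAR cells. They were BCL2L11 probe 1 at -0.51 (adjusted p = 0.0942), BCL2L11 probe 2 at -0.48 (0.107), PMAIP1 at -0.46 (0.0995), BID probe 1 at -0.45 (0.157) and MCL1 at -0.41 (0.119). BAX probe 1 differed by -0.15 (95% interval -0.74 to 0.43) and BBC3 by -0.25 (-0.58 to 0.07). A PMAIP1 rise that passed in TIA1 and not in TIAR cells was therefore not shown to differ between them.

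The balance of the family was taken on each array as the mean of the 7 pro-apoptotic genes minus the mean of the 3 anti-apoptotic genes, using the brightest probe of each gene after centring it over the 8 arrays. For BAX and BCL2 that was probe 1, which probe 2 did not follow in every line. BCL2L1 was counted as anti-apoptotic, although the form read was not established. The balance was 0.36 and 0.40 in TIA1, 0.21 and 0.25 in TIAR, -0.45 and -0.52 in HuR and -0.22 and -0.02 in GFP cells. The lines did not overlap, and their order was TIA1, TIAR, GFP and HuR. The balance was higher than in HuR cells by 0.87 in TIA1 and by 0.72 in TIAR cells. The mean of the pro-apoptotic genes was 0.31 and 0.38 in TIA1, 0.05 and 0.18 in TIAR, -0.34 and -0.32 in HuR and -0.29 and 0.03 in GFP cells, and so it made up most of the difference. The largest terms in TIA1 against HuR cells were BAX probe 1 (1.55), BBC3 (1.27) and BCL2L11 probe 1 (1.05). The other pro-apoptotic genes were at -0.15 to 0.49. The anti-apoptotic mean ranged only from -0.16 in a TIAR array to 0.21 in an HuR array. Of its genes, BCL2 probe 1 was at -0.94, BCL2L1 at 0.35 and MCL1 at 0.01 in TIA1 against HuR cells. In TIAR against HuR cells they were at -0.69, 0.26 and -0.40. With the mean of all probes of each gene the differences from HuR cells were 0.60 and 0.49. The differences from GFP cells were 0.50 in TIA1 and 0.35 in TIAR cells. They were 0.36 and 0.25 with the mean of all probes, and 0.42 and 0.31 with normexp background correction. After quantile normalization they were 0.11 and -0.03, and in the authors' normalized values 0.07 and 0.07. The SD of the GFP arrays was 0.525 and 0.452 in those last settings. The differences from HuR cells kept their sign and most of their size under all of these settings. Those from GFP cells did so with normexp and with all probes, but not with quantile normalization or the authors' values. The members were chosen with such results known, and no test was made of the balance.

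**Figure D4:**
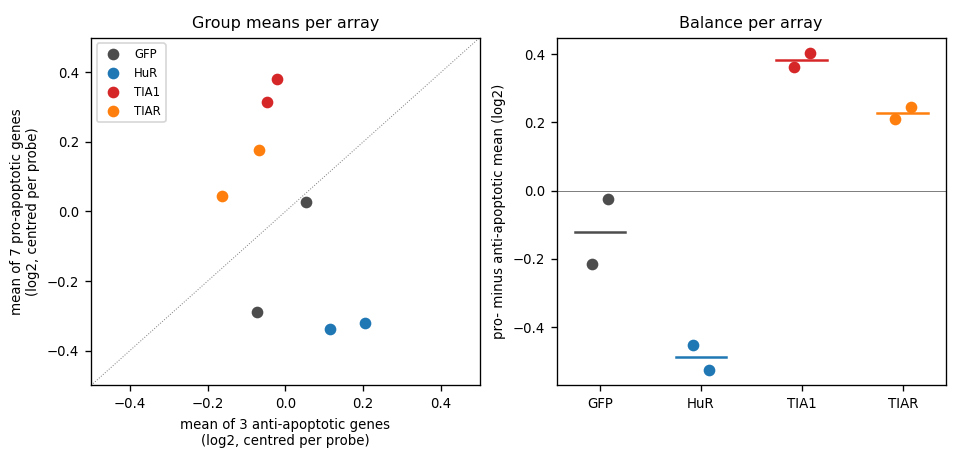
Left, mean of the 7 pro-apoptotic genes (y) against the mean of the 3 anti-apoptotic genes (x) on each array, both on the centred log2 scale, with the dotted line where they are equal. Right, their difference on each array by line, with short lines for the means of 2 arrays: TIA1 and TIAR arrays lie above 0 (0.21 to 0.40), GFP and HuR arrays below (-0.52 to -0.02).

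The wider apoptotic machinery was read in 3 further gene lists. Of 13 other BCL2 family genes, 16 probes of 11 genes were tested. In TIA1 against HuR cells 2 were called upward and 1 downward, 18.8% against 13.4% of all probes. By adjusted p alone there were 7 rises and 6 falls (81.2% of the 16 against 41.5% of all probes). BMF, a BH3-only gene tied to loss of attachment, measured 0.11 and -0.14 in TIA1, -0.41 and -0.38 in TIAR, -2.02 and -2.05 in HuR and -0.52 and -0.94 in GFP cells. It rose by 2.02 in TIA1 (limma adjusted p = 0.00258) and by 1.64 in TIAR cells (adjusted p = 0.00401) against HuR cells. BIK, a BH3-only gene of the endoplasmic reticulum, measured -0.95 and -0.94 in TIA1, -0.97 and -0.99 in TIAR, -2.38 and -2.27 in HuR and -1.43 and -1.23 in GFP cells. It rose by 1.38 (adjusted p = 0.00287) and 1.35 (adjusted p = 0.00527). Both were lower in HuR than in GFP arrays with no overlap, at -1.30 and -0.99 (adjusted p = 0.187 and 0.189). The 1 called fall was at the second of 3 BCL2L13 probes, which was at -1.33 (adjusted p = 0.00615) in TIA1 against HuR cells. In TIAR against HuR cells 2 of the 16 probes were called, those of BMF and BIK, 12.5% against 10.1% of all probes. By adjusted p alone there were 3 rises and 2 falls (31.2% against 30.7% of all probes).

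**Figure D5:**
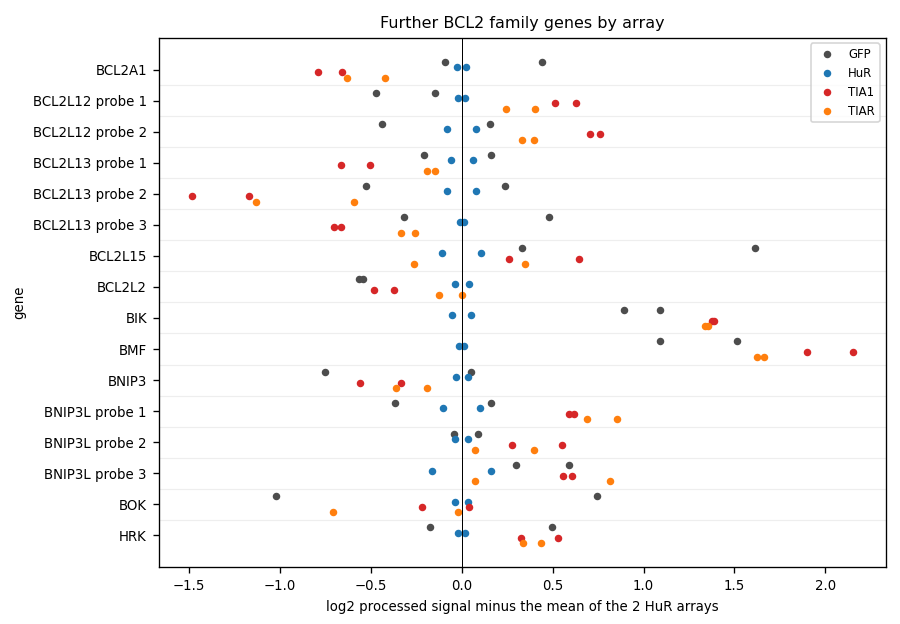
Log2 processed signal of the other BCL2 family probes that were above background on all 8 arrays, each minus the mean of the 2 HuR arrays, with 1 point per array and 1 row per probe. The BMF and BIK points of the other 3 lines lie to the right of the HuR points, and those of the second BCL2L13 probe in TIA1 cells lie furthest to the left.

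Of the genes for mitochondrial release and the apoptosome, 18 probes of 12 genes were tested. In TIA1 against HuR cells 1 was called upward and 1 downward, 11.1% against 13.4% of all probes. By adjusted p alone there were 3 rises and 5 falls (44.4% against 41.5% of all probes). In TIAR cells none was called, against 10.1% of all probes, with 1 rise and 4 falls by adjusted p alone (27.8% against 30.7%). APAF1, the scaffold of the apoptosome, measured -1.42 and -1.55 in TIA1, -1.58 and -1.63 in TIAR, -2.51 and -2.49 in HuR and -2.18 and -1.87 in GFP cells. It rose by 1.02 (limma adjusted p = 0.00473) in TIA1 and by 0.90 (adjusted p = 0.00826) in TIAR cells. The called fall was at 1 of 2 probes of VDAC1, a channel of the outer membrane, which measured -0.12 and -0.16 in TIA1 against 0.74 and 0.98 in HuR cells (adjusted p = 0.00713). Of the 9 probes of 6 inhibitors of apoptosis none was called in either comparison, against 13.4% and 10.1% of all probes. By adjusted p alone there were 1 rise and 3 falls in TIA1 cells (44.4% against 41.5%). In TIAR cells there was 1 fall (11.1% against 30.7%).

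BAX probe 1 had the widest range of line means among the member probes. The 5 gene-named probes whose pattern over the 8 arrays was closest to it, by the root mean square difference after centring among 17488 probes compared, were those of DHX58 (0.135 log2 units), GPRC5C (0.137), MAPK11 (0.145), WFDC2 (0.147) and MIDN (0.149). Their Pearson correlations with BAX over the 8 arrays were 0.973 to 0.980. This is a description with no test, since they were picked for this likeness and arrays of 1 line may not be independent. All of them were lowest in HuR cells, which follows from their being picked for likeness to BAX probe 1.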

How the data were processed

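RNA of 4 lines (2 arrays each) was hybridised to one-colour Agilent human arrays, all on 1 slide. The deposited files hold scanner intensity values, which the authors extracted with Agilent Feature Extraction 10.7.3.1 (background-subtracted processed signal, per the file headers). The authors also deposited log2 normalized values, for which the labels name limma without a version, and which were used as an alternative. The intensity was scaled to the 75th percentile of each array and taken to log2, and after leaving out control and outlier spots, repeated spots were averaged per probe. Lines were compared with limma 3.58.1 (lmFit and eBayes, R 4.3.3) on the 4 arrays of the pair, over probes that 1 or both lines showed well above background on both arrays, with Benjamini-Hochberg adjustment over all of them. A call needed an adjusted p under 0.05 and a 2-fold change. The fit was tested on simulated data. The rule for named genes was every member probe, any called probe of the 3 further lists, and the 5 probes most like the widest-ranging member. The members and lists were chosen with earlier results of these data known. The 15 RefSeq accessions of member probes all matched their gene symbol. With 2 arrays per line, their number limits the precision. Alternatives were normexp background correction (offset 50), quantile normalization, other filters, all 8 arrays in one fit, a replicate block and leaving out each array. One marker of another cell type is not reported here.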

Additional observations from a re-analysis of the deposited data

How the results depend on the processing

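No log2 fold change of a member probe changed sign while past the threshold, in 176 recomputed values for each of the 6 comparisons. Against GFP cells and in TIAR against TIA1 cells no member probe passed in the main fit, so such a change could hardly occur there. Against HuR cells member probes lost the threshold in some settings, as given below. The calls against HuR cells rested on both HuR arrays, and without either of them the calls over all probes fell as well. Leaving out 1 array at a time, the member probes called in TIA1 against HuR cells ranged from 1 to 4 (4 without TIA1 array 1, where BCL2L11 probe 3 was added) and in TIAR against HuR cells from 0 to 2. Without either HuR array, BBC3 alone stayed called in TIA1 cells (adjusted p = 0.0473 and 0.0453), with BAX probe 1 at 0.0525 and 0.0526 and BCL2L11 probe 1 at 0.0545 and 0.0513, and none in TIAR cells. A single array then stood for HuR and was assumed to vary like the other line. Against GFP cells, one fit of all 8 arrays gave 1 call in each of TIA1, TIAR and HuR cells. Over all probes that fit gave 2523, 1689 and 1132 calls. Some member probes were called when a GFP array was left out, but a single array then stood for GFP and calls over all probes rose as well. By adjusted p alone there were 10 and 8 probes in TIA1 and TIAR against HuR cells, but 4 and 2 with no filter on dim probes, where more probes were tested. Replicate numbers were shared by the lines, but same-numbered arrays did not deviate together throughout (correlations of -0.09 to 0.18). With 1 difference per line, these values cannot tell whether same-numbered arrays shared an origin. The replicate block left the calls at 3, 2 and 0 in TIA1 against HuR, TIAR against HuR and TIAR against TIA1 cells and at 0 in each comparison with GFP cells, and moved those by adjusted p alone to 8 and 5.

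The balance differences from HuR cells were 0.96 (TIA1) and 0.81 (TIAR) after quantile normalization, 0.97 and 0.98 in the authors' values, and 0.60 and 0.49 with the mean of all probes. From GFP cells, TIA1 cells differed by 0.11, 0.0656 and 0.36, TIAR cells by -0.0331, 0.0671 and 0.25, and HuR cells by -0.85, -0.91 and -0.24. TIAR minus TIA1 was -0.10 with normexp, 0.00 (0.0015) in the authors' values, where its sign turned, and -0.11 with all probes. The cause was not tested.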
